A study of Homo sapiens with 8 samples.

Results

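Acetylation of histone H3 at lysine 27 (H3K27ac), a mark of active promoters and enhancers, was compared between all-trans retinoic acid (ATRA)-treated and control HL-60 cells. HL-60 is a cell line from a human promyelocytic leukemia. The cells were kept for 4 days in 1 uM ATRA, dissolved in ethanol, or in an equal amount of ethanol as the control, with fresh medium and fresh ATRA at the midpoint. The comparison took the 4 H3K27ac peak lists, 2 per condition, of the 8 chromatin immunoprecipitation sequencing libraries in the series. The other 4 hold H3K4me3, a mark of promoters, in the same 2 conditions, and were read only as a separate measure. Both conditions came from the same line, so a difference is between treated and solvent-treated cells of 1 leukemia and not between primary cell stages. Nothing in the labels says whether the replicates were separate cultures.

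In this leukemia the cells are held at the promyelocyte stage, between the progenitors of the bone marrow and the neutrophil. ATRA binds the retinoic acid receptors, which sit on DNA together with the retinoid X receptors and exchange corepressors that hold histone deacetylases for coactivators that acetylate histones. HL-60 cells given ATRA leave the cell cycle, acquire a lobed nucleus and gain functions of the neutrophil, such as migration toward bacterial peptides, engulfment and the oxidative burst.

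For each of 19448 protein-coding genes, the number of base pairs (bp) under H3K27ac peaks was summed over the gene body and 10 kb on each side in each of the 4 libraries. A gene was called when both ATRA libraries lay above, or both lay below, both controls. With 2 libraries against 2 the smallest exact two-sided p is 0.33, so no gene was tested and each call states only that the libraries did not overlap. The depth of the libraries is unknown, since the files hold peaks and no read counts. ATRA replicates 1 and 2 had 28200 and 39332 peaks over 64.8 and 86.1 Mb, and the controls had 15457 and 29614 peaks over 28.8 and 54.0 Mb. The total under peaks was thus higher in both ATRA libraries than in both controls (log2 ratio of the means 0.87, exact permutation p = 0.33, two-sided, n = 2 per condition). The paper, keeping only peaks found in both replicates of a condition, reports fewer H3K27ac peaks in ATRA than in control, the opposite direction. Its value is a number of peaks and not a length, and why the directions differ was not tested. H3K4me3 totals were closer, at 63.2 and 62.3 Mb in ATRA and 59.8 and 47.7 Mb in the controls. In a culture, a larger share of cells with a mark and more of the mark per cell cannot be told apart. How far the number of reads or the efficiency of the immunoprecipitation set these totals was not tested. Each call is therefore given on 2 scales, in bp and as a share of the library's total length under peaks.

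**Figure D1:**
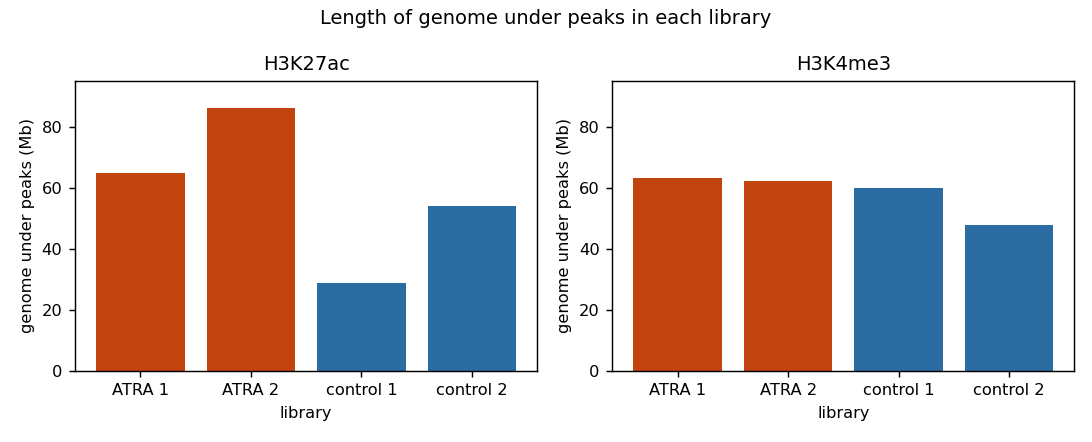
The bars give the length of genome under peaks (Mb, from 0) in each of the 4 H3K27ac libraries (left) and the 4 H3K4me3 libraries (right), with ATRA in orange and control in blue. The H3K27ac bars run from 28.8 Mb in control replicate 1 to 86.1 Mb in ATRA replicate 2, a wider spread than the 47.7 to 63.2 Mb of H3K4me3.

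In bp, 5827 genes (30.0% of all genes tested) had more H3K27ac in ATRA and 557 (2.86%) had less. As a share of the library, 2508 genes (12.9%) had more and 3587 (18.4%) had less. All 2508 genes with a greater share were also among the 5827, and all 557 with fewer bp were among the 3587, which the higher ATRA totals impose. These 2508 and 557 genes, apart on both scales, are called gained and lost from here on, and the direction of another 366 genes flipped between the scales. With the peaks of each library trimmed, longest first, to equal covered length, 1027 genes had more and 2255 had less. A further 5391 genes had no peak in any library. The median gene with a peak had a log2 ratio of 0.45 in bp and -0.14 in share (with 1000 bp added to each mean), a shift of -0.58 by the scaling. Neighboring genes share peaks, and the 2508 gained genes merged into 1771 loci of overlapping regions and the 557 lost genes into 437.

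The cells carried H3K27ac at the myeloid genes MPO and SPI1 in both conditions. MPO, the peroxidase of primary granules, had 17052 and 19193 bp under peaks in ATRA and 13218 and 19771 bp in the controls. SPI1, which encodes the myeloid factor PU.1, had 29516 and 18177 bp against 20249 and 12800 bp. All 10 myeloid markers had a peak in at least 1 library, beside 72.3% of all genes, and 27.7% of all genes had none. Control replicate 1 had 0 bp at ELANE, PRTN3 and AZU1, which are among the 10. Of 16 markers of non-blood tissues, 10 had none, and COL1A1, a collagen gene, was the 1 gained, with 21720 and 7828 bp in ATRA and 0 and 885 bp in the controls. Among 12 erythroid markers 7 had no peak, including the alpha and gamma globin genes. ALAS2, an enzyme of heme synthesis, was gained (7022 and 5007 bp against 1353 and 964 bp), and EPOR and KLF1 had more bp in ATRA.

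Sequence from stretches that differed is shown before the values, chosen for motifs of factors tied to the genes lost and gained. The 3 windows of 30 bases lie in stretches covered by peaks in both controls and in neither ATRA library, at TRIB3, INHBE and CHAC1, genes of the amino acid stress response. Capitals mark TGATGCAA, a form of the composite element bound by ATF4 with a C/EBP partner (searched as TGATGNAA on both strands after the TRIB3 values were seen).

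TRIB3: cccggtccgggTGATGCAAaccggagctaa
INHBE: ggtggtggtggTGATGCAAtcttacacagg
CHAC1: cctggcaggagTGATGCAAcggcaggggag

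The TRIB3 window (hg19 chr20:361525-361554, minus strand, in an untranslated exon of TRIB3) was repeated at intervals of 33 bases, with 3 identical copies in the peak. The INHBE window (chr12:57848373-57848402, minus strand) is in an intron of INHBE, and the CHAC1 window (chr15:41245449-41245478, minus strand) is in an untranslated exon of CHAC1. INHBE held another TGATGCAA 476 bases away.

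Next come 3 windows from stretches under peaks in both ATRA libraries and neither control. Capitals mark a DR5 element, a direct repeat of the nuclear receptor motif spaced by 5 bases, to which retinoic acid receptors with retinoid X receptors are known to bind.

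DHRS3: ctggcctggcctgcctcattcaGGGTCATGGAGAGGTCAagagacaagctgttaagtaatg
HIC1-SMG6: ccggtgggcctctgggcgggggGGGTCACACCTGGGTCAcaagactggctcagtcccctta
SMG6: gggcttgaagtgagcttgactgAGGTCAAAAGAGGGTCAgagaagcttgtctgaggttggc

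They are at chr1:12664586-12664646 (minus strand, intron of DHRS3), chr17:1975018-1975078 (plus strand, intron of SMG6 within 10 kb of HIC1) and chr17:1987058-1987118 (plus strand, intron of SMG6).

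Finally, 3 promoters are shown that were under peaks in both libraries of 1 condition and in neither of the other, as the 250 bases before the RefSeq start. CXCR5 was covered in ATRA, and PRG3 and GATA2 in the controls. Capitals mark TTNCNNAA, a relaxed C/EBP motif, which 30.2% of all placed promoters held within their 300 bases.

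CXCR5: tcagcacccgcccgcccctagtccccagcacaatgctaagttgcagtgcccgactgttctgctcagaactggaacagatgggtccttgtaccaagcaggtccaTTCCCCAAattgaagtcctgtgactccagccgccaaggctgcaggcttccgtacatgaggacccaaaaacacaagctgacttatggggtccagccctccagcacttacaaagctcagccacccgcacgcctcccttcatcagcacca
PRG3: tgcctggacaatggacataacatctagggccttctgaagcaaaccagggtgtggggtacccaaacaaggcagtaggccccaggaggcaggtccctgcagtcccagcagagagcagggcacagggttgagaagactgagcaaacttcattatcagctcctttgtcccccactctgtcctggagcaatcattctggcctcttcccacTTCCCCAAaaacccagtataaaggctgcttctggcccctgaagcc
GATA2: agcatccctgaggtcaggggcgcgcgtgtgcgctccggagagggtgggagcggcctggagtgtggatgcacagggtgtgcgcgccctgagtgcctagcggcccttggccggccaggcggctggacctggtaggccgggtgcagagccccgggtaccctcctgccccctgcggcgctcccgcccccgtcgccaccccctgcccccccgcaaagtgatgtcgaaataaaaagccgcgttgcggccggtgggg

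They are chr11:118763851-118764100 (plus strand), chr11:57148624-57148873 (minus strand) and chr3:128212045-128212294 (minus strand).

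Genes were ranked by the gap between the nearest libraries of the conditions, with 1 gene kept where regions overlap. The widest gap was at RAB31 (chr18:9708272-9862548), a small GTPase of vesicle traffic. RAB31 had 121137 and 136882 bp under peaks in ATRA and 9926 and 24242 bp in the controls, so the ATRA peaks covered most of the gene. SMG6 (chr17:1963133-2207079), a nuclease of nonsense-mediated decay, had 120146 and 95750 bp against 1080 and 1422 bp, a log2 ratio of 5.60. The SMG6 region runs into HIC1, a transcriptional repressor, which had 16186 and 15904 bp in ATRA and 0 bp in both controls. HIVEP3, a zinc finger factor, had 162144 and 108146 bp against 25755 and 23762 bp. Then followed CDH23, IRAG1, TG, ARHGAP26, CHST15, GAS7, COL23A1, CD44 and SH3RF3, with gaps from 67176 bp at CDH23 to 43026 bp at SH3RF3. TG encodes thyroglobulin, a thyroid protein, and its region holds SLA, a Src-like adaptor of blood cells, which had 56467 and 52226 bp in ATRA and 8448 and 21394 bp in the controls. CHST15, a sulfotransferase of chondroitin sulfate, had 46024 and 48916 bp in ATRA and 0 bp in both controls. CD44, the hyaluronan receptor, had 60773 and 63110 bp against 5054 and 16467 bp. Of these 12 genes, 10 were gained on both scales, and CDH23 and COL23A1 overlapped as a share of the library.

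**Figure D2:**
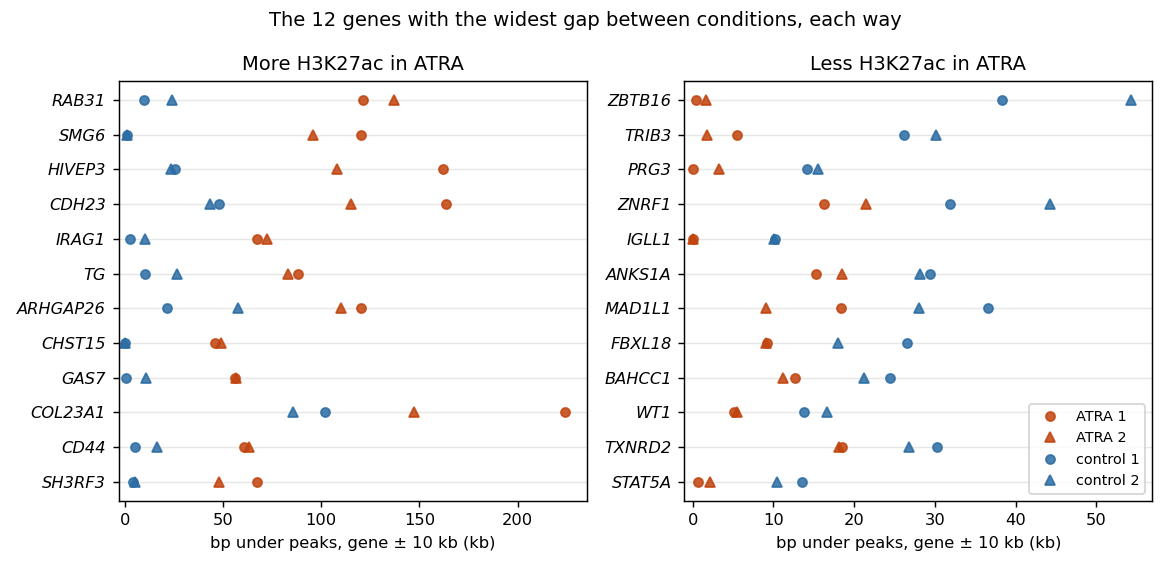
Each row is a gene and each point the bp under H3K27ac peaks (kb) within the gene and 10 kb on each side in 1 library, with ATRA in orange and control in blue, replicate 1 as a circle and replicate 2 as a triangle. The left panel shows the 12 genes with the widest gap upward, led by RAB31 with a gap of 96895 bp, and the right panel the 12 with the widest gap downward, led by ZBTB16 with a gap of -36574 bp.

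Ranked by the gap as a percent of the region, the leading gained genes were OR10P1, CXCR5, RAB31, RAB24, SOCS3, EIF1B, HIC1 and GABRR2, at 69.3% to 53.2%. CXCR5, a chemokine receptor best known from B cells, had 30668 and 25128 bp under peaks in ATRA and 4468 and 3142 bp in the controls. SOCS3, the feedback inhibitor of cytokine signaling through STAT3, had 16748 and 12814 bp in ATRA and 0 bp in both controls. OR10P1 is an olfactory receptor gene, and its 18208 and 20845 bp in ATRA lay against 1979 and 3694 bp in the controls. The region counts any peak in it, whichever neighbor the peak serves.

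The lost genes had narrower gaps. ZBTB16 (chr11:113929763-114127487), which encodes the progenitor factor PLZF, was the widest, with 438 and 1700 bp under peaks in ATRA and 38274 and 54248 bp in the controls (log2 ratio -4.51). Next was TRIB3 (chr20:343479-378203), a pseudokinase induced by ATF4, with 5445 and 1772 bp against 26240 and 30162 bp. PRG3 and its neighbor PRG2 encode the major basic proteins of eosinophil granules, and PRG3 had 0 and 3272 bp in ATRA and 14216 and 15475 bp in the controls. IGLL1, part of the surrogate light chain of early B cells, had 0 bp in both ATRA libraries and 10268 and 10125 bp in the controls. WT1, a factor of leukemic progenitors, had 5152 and 5485 bp against 13768 and 16655 bp. STAT5A, which relays growth factor signals, had 693 and 2210 bp against 13534 and 10436 bp. The rest of the 12 were ZNRF1, ANKS1A, MAD1L1, FBXL18, BAHCC1 and TXNRD2, with log2 ratios from -1.19 at FBXL18 to -0.61 at TXNRD2, where both conditions kept peaks. By percent of the region the leading losses were PRG3, TRIB3, IGLL1, AVP, OR8G2P, GATA2 and STAT5A. GATA2, a factor of stem cells and of the eosinophil and mast cell lineages, had 0 and 690 bp in ATRA and 7577 and 7158 bp in the controls. AVP, which encodes vasopressin, had 0 bp in both ATRA libraries and 9316 and 6375 bp in the controls.

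In 635 of the 2508 gained genes both controls had 0 bp, and in 63 of the 557 lost genes both ATRA libraries had 0 bp. With more than 10 kb in both ATRA libraries and 0 in both controls there were 27 genes. Besides CHST15, HIC1 and SOCS3 they included MERTK, the receptor by which phagocytes take up apoptotic cells (20703 and 21660 bp), SAMHD1, the nucleotidase of myeloid cells (13333 and 14387 bp), and PTGES, which makes prostaglandin E (26457 and 11581 bp). MECOM, a stem cell factor activated in some leukemias, was also among them (14296 and 24673 bp). The 9 genes with more than 3 kb in both controls and 0 in both ATRA libraries were IGLL1, NRSN2, AVP, CHD5, IGSF9B, GPX3, COL27A1, ORM1 and SLX9. NRSN2 is next to TRIB3, and COL27A1 and ORM1 shared the same peaks, with 4246 and 3215 bp. All of these genes were picked by the thresholds after the values were seen.

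Genes of the study's own account were read next. CD38, an ectoenzyme that ATRA induces in HL-60, was gained, with 18572 and 26671 bp in ATRA and 0 and 5959 bp in the controls. RUNX3, a factor of the myeloid and lymphoid lineages, was gained as well (36373 and 17756 bp against 3926 and 1192 bp). RARA, the receptor of ATRA, had 49940 and 36347 bp against 19678 and 17761 bp, and its share of the library overlapped. RXRA, its partner, had 11970 and 9518 bp in ATRA and 11375 and 8213 bp in the controls, which overlapped. PML and SPI1 overlapped too.

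The retinoid pathway divided within each role. Of 23 listed genes, 9 had more bp (39.1%, beside 30.0% of all genes) and 0 had fewer (beside 2.86%). A greater share of the library was found at 8 (34.8%, beside 12.9%). Among the receptors, RARB (414 and 981 bp in ATRA, 0 in both controls) and RARG (9159 and 10222 bp against 507 and 3755 bp) were gained, while RXRA and RXRB overlapped and RXRG had no peak. Among the enzymes, DHRS3 and ALDH1A2 were gained. DHRS3, which turns retinal back to retinol, had 24247 and 18622 bp against 0 and 357 bp, and ALDH1A2, which makes retinoic acid, had 49863 and 57451 bp against 7407 and 11515 bp. TGM2, a transglutaminase known as a retinoid target, had 15863 and 5053 bp in ATRA and 0 bp in both controls. CYP26A1 and CYP26B1, which break retinoic acid down, had no peak in any library, and neither did ALDH1A1, STRA6 or CRABP1. ALDH1A3 overlapped (2962 and 5557 bp against 1500 and 3595 bp), and RDH10 had a smaller share of the library.

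Among 46 lists of genes for neutrophil functions, regulators, growth and cell type markers, 6 with roles in phagocytes had the highest shares of gained members. That share was 55.6% for integrins and adhesion (10 of 18), 50.0% for the NADPH oxidase (4 of 8), 50.0% for G protein and PI3K gamma signaling (13 of 26), 48.0% for the leukocyte immunoglobulin-like and paired receptors (12 of 25), 47.1% for the lysosome (16 of 34) and 46.2% for lipid mediators (6 of 13). All stood above the 12.9% of all genes. Other lists of phagocyte functions were nearer to it, with 27.3% for Fc receptors (3 of 11), 14.3% for the actin cytoskeleton (4 of 28) and 6.67% for C-type lectins (1 of 15). The members were chosen with earlier results of these data known, and no list was tested.

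**Figure D3:**
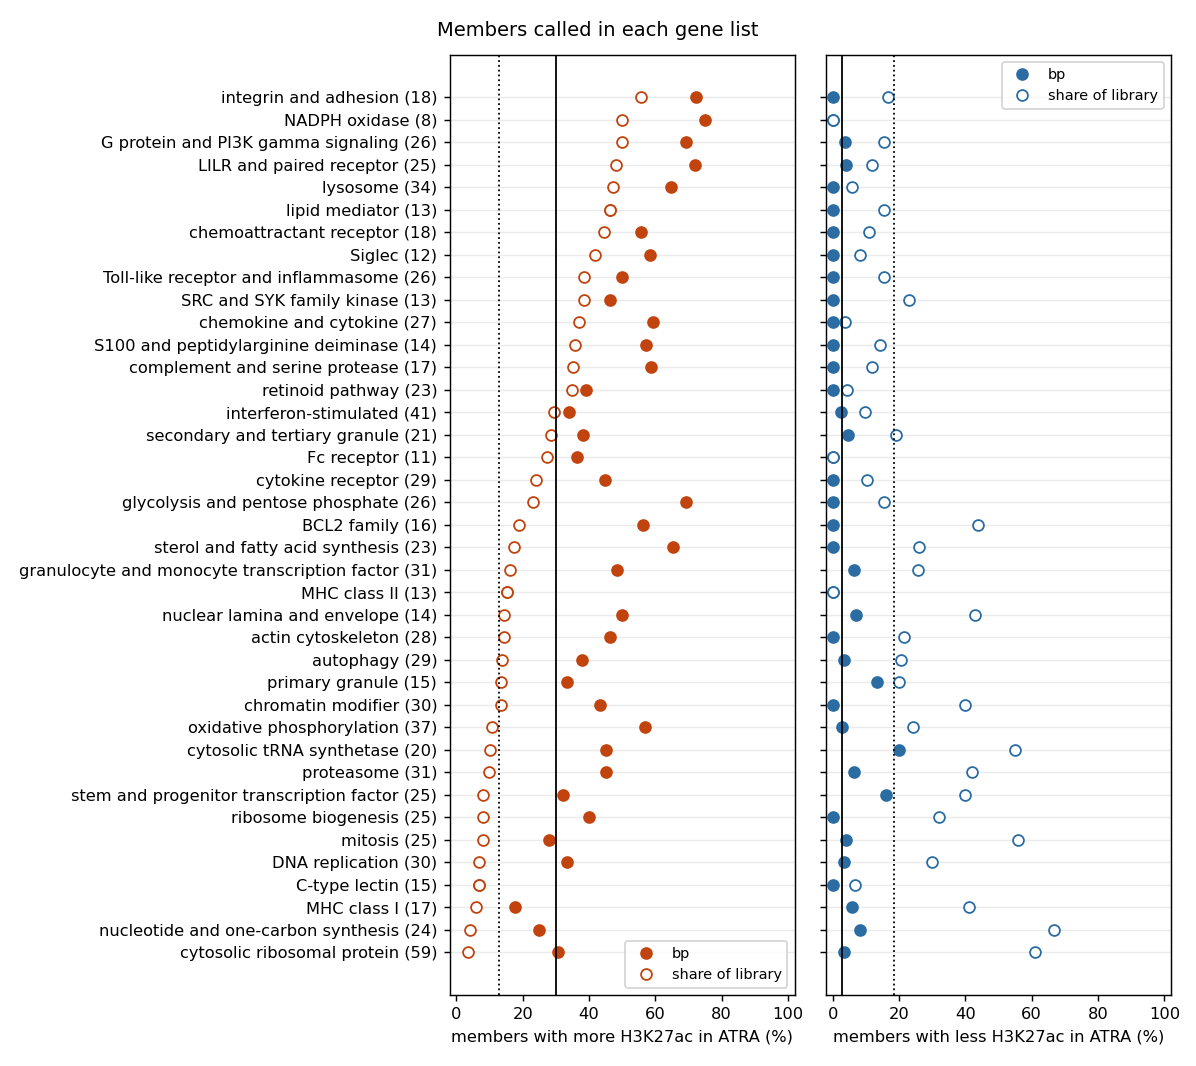
Each row is a gene list with its number of members, and the points give the percent of members with more (left) or less (right) H3K27ac in ATRA, filled for bp and open for the share of the library. The black lines mark all genes (30.0% and 2.86% in bp, solid, 12.9% and 18.4% in share, dotted). On the left, integrins lead by share of the library (55.6%) and the NADPH oxidase leads in bp (75.0%). Nucleotide synthesis and ribosomal proteins have the largest open values on the right.

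At adhesion genes, ITGAM, which encodes the alpha chain of the complement receptor Mac-1, had 8679 and 12888 bp under peaks in ATRA and 0 and 1889 bp in the controls. ITGB2, its beta chain, had 21001 and 25459 bp against 2552 and 12107 bp. ICAM1, a ligand of these integrins, had 4461 and 8053 bp in ATRA and 0 bp in both controls. CEACAM1, an adhesion receptor of activated neutrophils, had 20443 and 32857 bp against 1737 and 4043 bp (log2 ratio 2.83). The other members gained were ITGAD, ITGB7, ICAM3, CEACAM3, CEACAM4 and CD44.

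The oxidase that makes superoxide had gained members that included CYBB, CYBA and RAC1. CYBB, the catalytic subunit, had 23376 and 41210 bp in ATRA and 1636 and 17063 bp in the controls. NCF4 and RAC2 had more bp in ATRA but overlapped as a share, and NCF1 and HVCN1 overlapped in bp. The median log2 ratio of the 8 members was 1.26 in bp and 0.80 in share, beside 0.18 and 0.00 for all genes.

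Signaling from chemoattractant receptors had a median log2 ratio of 1.24 over 26 genes. GNG2, a G protein gamma subunit, had 35135 and 39032 bp in ATRA and 1496 and 3968 bp in the controls. PIK3R5 and PIK3CG, the regulatory and catalytic subunits of PI3K gamma, had 7537 and 12452 bp against 0 and 898 bp, and 15260 and 17471 bp against 4398 and 5722 bp. DOCK5, an activator of RAC, had 21005 and 29337 bp against 618 and 2941 bp. GNA15, a G alpha subunit of blood cells, was lost, with 10298 and 10863 bp against 13733 and 13158 bp. Among the receptors that use this signaling, 8 of 18 were gained (44.4%, beside 12.9% of all genes). LTB4R, the leukotriene B4 receptor, had 13497 and 8601 bp in ATRA and 0 and 260 bp in the controls, and PTAFR, for platelet-activating factor, had 33156 and 28425 bp against 2343 and 17342 bp. CCR3, the eotaxin receptor, had 32085 and 65283 bp against 975 and 14042 bp.

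Of 13 lipid mediator genes, 6 were gained, 2 had a smaller share of the library (LTC4S and CYP4F2), and the others, among them LTA4H, which makes leukotriene B4, overlapped or had no peak. ALOX5AP and ALOX5, which start leukotriene synthesis, had 35846 and 38614 bp against 8328 and 15484 bp, and 23684 and 32590 bp against 7954 and 14243 bp. TBXAS1, thromboxane synthase, had 45345 and 49605 bp against 2277 and 9504 bp. CYP4F3, which inactivates leukotriene B4, had 18479 and 23203 bp against 0 and 2174 bp.

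Inhibitory and activating surface receptors were called in blocks, and the LILR and Siglec genes sit beside each other in clusters. LILRA5 had 7074 and 17455 bp in ATRA and 0 bp in both controls, and LILRB3 and LILRA6, which are near copies of each other, had 9199 and 10921 bp and 8609 and 10331 bp in ATRA with 0 and 597 bp in the controls at both. SIGLEC7 and SIGLEC9 shared their control peaks (0 and 524 bp at each). Of 12 Siglecs, 5 were gained (41.7%, beside 12.9% of all genes), and SIGLEC11 had 6008 and 10825 bp in ATRA against 0 in both controls. Outside these clusters, CD300A had 28414 and 20952 bp against 2382 and 4814 bp, and TREM1, which amplifies inflammation, had 23343 and 18599 bp against 4204 and 6134 bp. PILRB was the single lost member of its list, with 9500 and 9138 bp against 12652 and 11375 bp.

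Lysosomal genes had 22 of 34 members with more bp (64.7%, beside 30.0% of all genes) and 0 with fewer (beside 2.86%). CTSD, the cathepsin D protease, had 15687 and 12764 bp in ATRA and 915 and 3378 bp in the controls. PSAP, the precursor of the saposins, had 8669 and 9408 bp against 636 and 1208 bp. TFEB, the factor that switches on lysosomal genes, had 10341 and 6751 bp against 564 and 468 bp. GRN, progranulin, had 3837 and 4079 bp in ATRA and 0 bp in both controls.

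Granule genes divided by member. Of 21 genes for secondary and tertiary granules, which form late in the neutrophil lineage, 6 were gained (28.6%, beside 12.9% of all genes) and 1 lost (4.76%, beside 2.86%). Of 15 for primary granules 2 were gained (13.3%), near the share of all genes, and 2 lost (13.3%). Among the late genes OLFM4 had 2979 and 6891 bp in ATRA and 0 bp in both controls, and MMP9, the gelatinase, had 6297 and 5042 bp against 713 and 1645 bp. LTF, lactoferrin, overlapped (3724 and 6443 bp against 2213 and 5849 bp), and MMP8 had 0 and 262 bp in ATRA and 0 bp in both controls. Among the primary granule genes CTSG, cathepsin G, was lost (903 and 2317 bp against 3207 and 3464 bp), as was LYZ, lysozyme (1817 and 2195 bp against 2823 and 8336 bp). ELANE, neutrophil elastase, had 383 and 352 bp against 0 and 352 bp. S100A8 and S100A9, which together form calprotectin, had 8003 and 8196 bp against 0 bp in both controls, and 8395 and 10761 bp against 0 and 200 bp.

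Monocyte markers were called in part. Of 19, 5 were gained (26.3%, beside 12.9% of all genes), among them CD14 (4546 and 5189 bp against 441 and 1167 bp), CCR2 and MERTK, and 4 had no peak in any library, among them CD163 and MRC1. The summed length of the 19 was 83.0 and 125.1 kb in ATRA and 28.5 and 61.0 kb in the controls. The list's median log2 ratio was 0.00 in bp, and the part of other cells in these values was not tested. Among 13 T and NK cell markers the neighbors CD3D, CD3E and CD3G were gained (23.1%, beside 12.9% of all genes), with 7270 and 12073 bp at CD3E in ATRA against 0 and 584 bp. CD2 had a smaller share (0 and 1212 bp against 786 and 9184 bp), and CD28 and TRAT1 had 0 bp in both ATRA libraries and peaks in control replicate 2 alone.

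The lists for growth turned on the scale. Of 59 cytosolic ribosomal protein genes, 18 had more bp (30.5%) and 2 fewer, near the 30.0% and 2.86% of all genes, but 36 had a smaller share of the library (61.0%, beside 18.4%). Nucleotide and one-carbon synthesis had 16 of 24 members with a smaller share (66.7%), mitosis 14 of 25 (56.0%) and DNA replication 9 of 30 (30.0%). Their medians were positive in bp (0.06 to 0.28) and negative in share (-0.44 to -0.63), so these genes lay below the library's total and not below the controls in bp. Glycolysis and pentose phosphate genes had 18 of 26 members with more bp (69.2%, beside 30.0% of all genes). On both scales 6 were gained (23.1%, beside 12.9%), and 4 had a smaller share (15.4%, beside 18.4%). The median log2 ratio of this list was 0.63 in bp and 0.02 in share. HK1, a hexokinase, had 22817 and 23486 bp in ATRA and 1409 and 3980 bp in the controls, and SLC2A1, the glucose transporter, 21344 and 19926 bp against 2887 and 3354 bp.

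Transcription factors of progenitors and of mature myeloid cells were each called in both directions. Of 25 stem and progenitor factors, 4 were lost (16%, beside 2.86% of all genes), namely ZBTB16, WT1, GATA2 and BCL11A, and 2 were gained (8.0%, beside 12.9%), MECOM and TRIB2. BCL11A, a repressor of fetal globin, had 429 and 2894 bp in ATRA and 6985 and 9984 bp in the controls. MYB overlapped in bp (9242 and 25665 bp against 11106 and 31119 bp), and MEIS1 had no peak. Of 31 granulocyte and monocyte factors, 5 were gained (16.1%, near the share of all genes) and 2 lost (6.45%), and 8 had a smaller share of the library (25.8%, beside 18.4%). IRF1, which carries interferon responses, had 44916 and 48411 bp against 6430 and 20416 bp, and KLF2, a quiescence factor, had 5946 and 3869 bp in ATRA and 0 bp in both controls. CEBPE, a driver of late granulocytes, had 15700 and 14476 bp against 11904 and 14576 bp and overlapped. STAT3 was lost, with 2752 and 5988 bp against 14175 and 12620 bp, and its region overlaps that of the adjacent STAT5A, so they share peaks. Within 10 kb of its own 5′ end the log2 ratio of STAT3 was 0.494, the other direction. The other loss, JUN, rested on a gap of -85 bp (2242 and 2009 bp against 2490 and 2327 bp).

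The nuclear envelope was read because ATRA changes the shape of the nucleus in HL-60. LBR, the lamin B receptor needed for nuclear lobes, had 5271 and 8886 bp in ATRA and 4102 and 2631 bp in the controls. LMNA, lamin A/C, had 41238 and 21652 bp against 11537 and 14704 bp. LMNB1, lamin B1, was lost, with 2091 and 2616 bp against 2985 and 4058 bp. LBR and LMNA overlapped as a share, and 2 of 14 genes of the list were gained, SYNE1 and SYNE2 (14.3%, near the 12.9% of all genes). A smaller share of the library was found at 6 of the 14 (42.9%, beside 18.4%).

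The lost genes held a group that was noticed in the ranking and then written out as 34 genes of the amino acid stress response, so its count is a description of genes chosen after their values were seen. Of the 34, 12 were lost (35.3%, beside 2.86% of all genes) and 2 were gained (5.88%, beside 12.9%). A smaller share of the library was found at 24 (70.6%, beside 18.4%). Besides TRIB3, the losses were at PSAT1, which makes serine (0 and 675 bp in ATRA, 3944 and 4495 bp in the controls), SHMT2 (2055 and 2713 bp against 4367 and 3899 bp), ASNS, which makes asparagine (0 and 661 bp against 1189 and 4813 bp), and ATF5 (3154 and 3439 bp against 10826 and 7190 bp). INHBE, an inhibin subunit induced by this response, had 1117 and 0 bp against 6290 and 6030 bp, and CHAC1, which cleaves glutathione, had 2216 and 1017 bp against 4373 and 5601 bp. SLC7A11, the cystine transporter, and NUPR1 were gained, and ATF4 itself had 9180 and 11181 bp against 4560 and 7396 bp and overlapped as a share. Losses at GARS1 (-53 bp) and AARS1 (-17 bp) rested on very small gaps.

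A list of 16 eosinophil genes, also written after PRG2 and PRG3 were seen in the ranking, had 6 losses (37.5%, beside 2.86% of all genes) and 1 gain (6.25%, beside 12.9%). Lost were PRG2, PRG3, EPX, the eosinophil peroxidase (2927 and 4791 bp against 6021 and 8139 bp), IL5RA, the receptor of interleukin 5 (5591 and 7047 bp against 7708 and 15813 bp), IL1RL1 and GATA2. The IL1RL1 call rested on a gap of -150 bp, with 0 and 8511 bp in ATRA and 8661 and 22500 bp in the controls. CCR3 was the gain. PRG2 and PRG3 are neighbors and share peaks, so their losses are not separate. The 37.5% therefore counts that locus more than once. Of the same 16, 8 also had less H3K4me3 in ATRA, beside 2.62% of all genes.

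The letters of the ATF4 composite element were counted in the stretches that differed. Stretches of at least 500 bp under peaks in both controls and neither ATRA library numbered 1299, and 73 of their 500-base centers held TGATGCAA (5.62%). The motif was in 123 of 10255 centers of stretches covered in both ATRA libraries and neither control (1.20%) and in 150 of 8747 covered in all 4 libraries (1.71%). The looser TGATGNAA, which includes it, was in 13.8%, 6.87% and 6.44%. At promoters the shares of TGATGCAA were 0.922% of lost, 0.572% of gained and 0.691% of all genes. The DR5 element was in 22 of the ATRA-only centers (0.215%) and in 8 of the centers covered in all 4 libraries (0.0915%). It was in 0 of the 1299 control-only centers, but matches were too few to set these centers apart. DR2, another retinoic acid response element, was nearly as frequent in control-only centers (2.08%) as in ATRA-only centers (2.53%). In centers covered in all 4 libraries it was in 0.686%. The receptor motif AGGTCA alone was in 36.4% of ATRA-only, 34.4% of control-only and 26.0% of common centers. The DR5 copies shown for DHRS3, HIC1 and SMG6 were searched over whole stretches, for which no share was counted. Among the named gained and retinoid genes searched in this way, RAB24 and TG also held a match. CD38, RARA, RARB, RARG, ALDH1A2, TGM2 and RUNX3 held none. The motif AGATAAG, read by GATA factors, was in 6.10%, 6.47% and 5.19% of ATRA-only, control-only and common centers, and the PU.1-type motif GAGGAAGT in 4.72%, 3.77% and 5.78%. The median GC content was 47.6%, 47.6% and 55.2%. A match to letters is not a bound site.

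The place of the difference within the regions was near that of all genes. Of the extra bp at gained genes, 66.2% were in gene bodies (64.4% at lost and 61.5% at all genes), 18.1% in the 10 kb before them (21.0% and 21.6%) and 15.7% in the 10 kb after (14.6% and 16.9%). The 2 kb on each side of the 5′ end held 11.8% (14.6% and 14.9%). Coverage of gained gene bodies was 7.18% and 7.98% in ATRA and 0.920% and 2.06% in the controls. At lost genes it was 1.77% and 1.89% against 3.93% and 4.55%. Gained genes had on average 3.53 and 3.85 peaks in ATRA and 0.910 and 1.85 in the controls, with a mean of 2331 and 2356 bp per peak in ATRA and 1170 and 1311 bp in the controls. These values come from the contrast that chose the genes and describe where the difference lies.

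**Figure D4:**
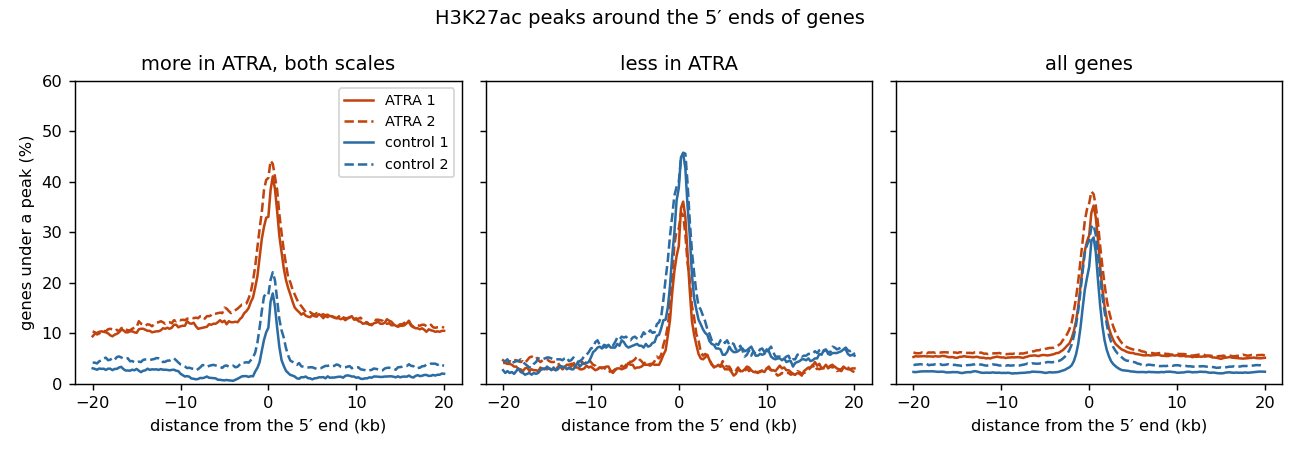
The curves give the percent of genes under an H3K27ac peak by the distance from the 5′ end (kb, transcription to the right) for gained genes (left), lost genes (middle) and all genes (right), with ATRA in orange, control in blue, replicate 1 solid and replicate 2 dashed. At gained genes the ATRA curves stay above the controls up to 20 kb from the start, and at lost genes the step near 10 kb upstream marks the edge of the region used to choose them.

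At the promoters themselves (300 bases around the RefSeq start, placed for 14916 genes), 239 of 1922 gained genes were under peaks in both ATRA libraries and neither control (12.4%, beside 2.94% of all genes). Another 865 (45.0%, beside 52.4% of all genes) had a promoter under no peak in any library. Of 434 lost genes, 23 (5.30%, beside 0.389%) had a promoter covered in both controls and neither ATRA library, TRIB3, PRG3, IGLL1, CHAC1 and GATA2 among them. A promoter covered in all 4 libraries was found at 27.6% of lost, 12.7% of gained and 23.7% of all genes. Peaks at a promoter inside the region count toward the call of its gene. A higher share of ATRA-only promoters at gained genes, and of control-only promoters at lost genes, therefore follows in part from that choice. These shares describe where the difference lies and are not separate support for it.

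H3K4me3 is a separate measure that the calls did not use, though it came from the same cells and treatments. In bp it was greater in ATRA at 27.7% of all genes and smaller at 2.62%, and as a share of the library at 11% and 16.8%. Of the 2508 gained genes, 998 had more H3K4me3 in bp (39.8%) and 38 less (1.52%), and 569 had a greater share (22.7%) and 305 a smaller one (12.2%). The 39.8% was near that of genes with more H3K27ac in bp only (41.0%) and of genes with a smaller share only (38.3%). Of the 557 lost genes, 79 had less H3K4me3 in bp (14.2%) and 119 had more (21.4%). As a share the balance was opposite, with 204 smaller (36.6%) and 40 greater (7.18%). No test compared these shares. The libraries of the 2 marks share replicate numbers, and control replicate 2 had the lowest H3K4me3 total.

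**Figure D5:**
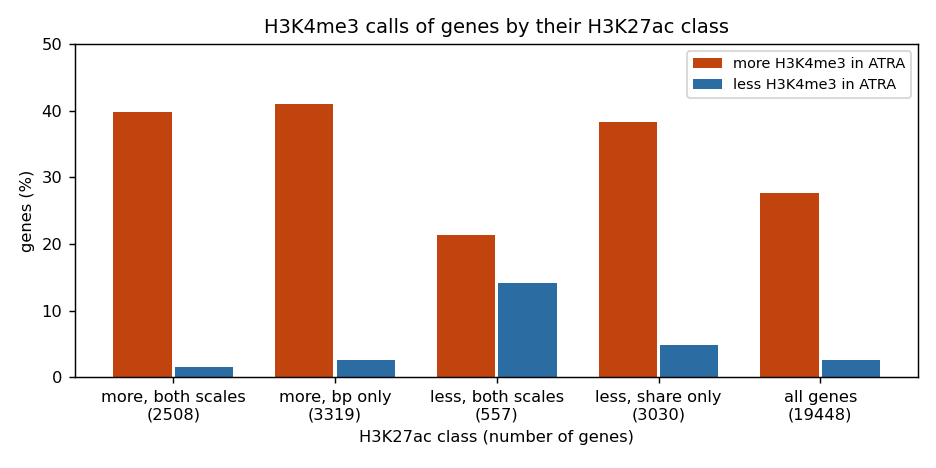
The bars give the percent of genes with more (orange) or less (blue) H3K4me3 in ATRA, for genes grouped by their H3K27ac class, with the number of genes below each class. The blue bar is tallest for the 557 genes that lost H3K27ac (14.2%, beside 2.62% of all genes).

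Named losses of H3K27ac divided in H3K4me3. GATA2 had 7596 and 8347 bp of H3K4me3 in ATRA and 16334 and 13578 bp in the controls, and ZBTB16 had 3127 and 4760 bp against 8237 and 6577 bp. IGLL1 had 0 and 970 bp against 4502 and 4465 bp. TRIB3 went the other way, with 7973 and 8823 bp in ATRA and 7024 and 7131 bp in the controls, as did FAT1, a cadherin that lost H3K27ac (903 and 919 bp against 8096 and 8282 bp), with 6870 and 6313 bp of H3K4me3 against 6219 and 5000 bp. At gained genes S100A8 had 3997 and 1715 bp of H3K4me3 in ATRA and 0 bp in both controls, and HIC1 had 11245 and 7884 bp against 4278 and 744 bp. CHST15, MERTK and CD44 had 0 bp of H3K4me3 in all 4 libraries, so their H3K27ac calls stand alone.

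The study lists differentially expressed genes whose contacts with regulatory regions were higher or lower in ATRA, a subset of all its genes with such contacts. Of 159 placed genes with higher contacts, 145 had more H3K27ac in bp (91.2%, beside 30.0% of all genes) and 101 were gained on both scales (63.5%, beside 12.9%). Of 59 placed genes with lower contacts, 18 were lost (30.5%, beside 2.86%), 14 had more bp (23.7%, beside 30.0%) and 0 were gained on both scales. The study drew these lists with enhancer marks of the same cells in use, so they are not independent of the peaks.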

How the data were processed

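Per the labels and methods, HL-60 chromatin was immunoprecipitated with antibodies to H3K27ac or H3K4me3, and reads were trimmed with cutadapt, mapped to hg19 with Bowtie and called per library as broad peaks with MACS2. Input libraries were made from fragmented genomic DNA. Whether peak calling used them, and the tool versions, are not given in the sources used here. The authors deposited peak lists, of which only the positions, no signal or other value, were used to sum covered bp. Their score, fold and p-value columns were not used, since some hold values outside the range of such quantities.

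Genes were 19448 protein-coding genes of GENCODE 44 on GRCh37 (chromosomes 1 to 22 and X), after 647 readthrough genes were left out. Peaks on these chromosomes were used as deposited, since none overlapped another in the same H3K27ac library, and log2 ratios added 1000 bp to each mean. Python 3.11.15, numpy 2.4.6, pandas 2.3.3 and matplotlib 3.10.9 were used. Covered bp equalled those of bedtools for 19448 of 19448 genes in the H3K27ac peaks of ATRA replicate 1, the only library checked. Named genes were the 12 widest gaps each way in bp, the 8 widest by percent of the region, genes the study names, and listed members. The members and lists were chosen with earlier results of these data known, and the amino acid and eosinophil lists after their values were seen. Promoters are RefSeq starts placed on GRCh37. Some listed genes are not reported here.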

Additional observations from a re-analysis of the deposited data

How the results depend on the processing

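The direction of the total (log2 ratio 0.87) held under the alternatives run, but the counts depended on scale. Genes with more and with less H3K27ac numbered 5827 and 557 as reported, 2508 and 3587 as a share of the library, 4374 and 1010 with equal numbers of the longest peaks, 1027 and 2255 with peaks trimmed to equal covered length, 4066 and 371 with peaks of at least 2000 bp, 2673 and 299 by number of peaks, and 3464 and 210 with a gap of at least 1000 bp. Leaving out each replicate in turn, which eases the call, gave 6413 (without control replicate 1) to 9811 (without ATRA replicate 1) with more and 860 (without control replicate 2) to 2817 (without control replicate 1) with less. As a share of the library it gave 3803 to 4510 and 4816, 5228, 5614 or 6225, an alternative chosen after seeing the data.

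Replicate numbers are shared only as numbers. Deviations of same-numbered libraries correlated at 0.62 over 14057 genes, a description. With the replicate block, 8352 genes had more and 1134 less, and 3586 and 5281 as a share. Genes called in both marks numbered 2360 with more and 79 with less, 569 and 1211 as a share, 4655 and 184 with the replicate block, and 3939 to 4954 and 182 to 322 with each replicate left out.

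Of 99 named or listed genes followed, 30 kept their call under all 15 alternatives listed for them. Log2 ratios reversed with equal covered length at ADSL (-0.861), ALAS2 (-0.745), ATG2A (-0.774) and TAPBP (-2.062), within 10 kb of the 5′ end at ANKS1A (0.323), FBXL18 (0.358), MAD1L1 (0.506) and STAT3 (0.494), by number of peaks at ATP5PB (0.222), CALR (0.415), CD79A (-0.585), GNA15 (0.115), ISG20 (0.807), MMP25 (-0.263), RAB24 (-0.193) and TG (-0.059), and within 50 kb at ATP5PB (0.692), ORM1 (0.305), PILRB (0.488) and PSMD8 (0.992). As a share they reversed at MMP25 (-0.213) and TAPBP (-0.156), and with the replicate block and share at ESPL1 (-0.004), MMP25 (-0.204) and TAPBP (-0.144). The cause was not tested. With no read counts in the files, a gene without a peak cannot be told apart from one below the caller's limit.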

Other observations

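Gene groups not described above had the following values. Of 41 interferon-stimulated genes, 12 were gained in ATRA on both scales (29.3%, beside 12.9% of all genes). Of the 41, 1 was lost (2.44%, beside 2.86%) and 11 had no peak. MX2, an antiviral GTPase, had 27550 and 21434 bp under H3K27ac peaks in ATRA and 1185 and 3807 bp in the controls. MX1 had 1093 and 3378 bp in ATRA and 0 bp in both controls, as did ISG15 with 1996 and 1194 bp. ISG20, an exonuclease, was the loss, with 2609 and 3453 bp against 3908 and 4833 bp.

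Of 26 Toll-like receptor and inflammasome genes, 10 were gained (38.5%, beside 12.9% of all genes) and 0 lost (beside 2.86%). A smaller share of the library was found at 4 of the 26 (15.4%, beside 18.4%). NLRP3, an inflammasome sensor, had 7320 and 10808 bp against 833 and 3845 bp, and IRAK2, a kinase downstream of the receptors, had 21326 and 31988 bp against 3861 and 7228 bp. Of 27 chemokine and cytokine genes, 10 were gained (37%, beside 12.9% of all genes). The neighbors CCL3 and CCL4, which attract phagocytes, had 10402 and 17776 bp against 0 and 4222 bp, and 9307 and 15160 bp against 0 and 4896 bp. IL1B had 1530 and 7985 bp in ATRA and 0 bp in both controls.

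A list of 24 JAK-STAT genes, written after STAT5A and SOCS3 were seen in the ranking, had 5 gained (20.8%, beside 12.9% of all genes) and 3 lost (12.5%, beside 2.86%). STAT2 had 8191 and 9617 bp against 2461 and 2804 bp, and STAT4 had 7847 and 27289 bp against 2469 and 4413 bp. SOCS7 was lost with STAT3 and STAT5A, at 1657 and 3451 bp against 3515 and 5136 bp. STAT3 and STAT5A are adjacent and share peaks, each with 7628 bp of stretches covered only in both controls. Their losses are therefore not separate, and the 12.5% counts that locus more than once. Of 20 cytosolic tRNA synthetases, 4 were lost (20%, beside 2.86% of all genes) and 2 were gained (10.0%, beside 12.9%). The losses at GARS1 (-53 bp) and AARS1 (-17 bp) rested on very small gaps. In bp, 9 of the 20 had more (45.0%, beside 30.0%), while 11 had a smaller share of the library (55.0%, beside 18.4%). WARS1, which interferon is known to induce, was gained (28028 and 19354 bp against 4469 and 8062 bp). No list was tested.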
